A study of Homo sapiens with 4 samples.

Results

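Tubulins are the proteins from which microtubules are built, and 10 tubulin genes are described here in lung adenocarcinoma cells after knockdown of circZFR. The members were given by name, as expressed tubulins, namely the alpha-tubulin genes TUBA1A, TUBA1B, TUBA1C and TUBA4A and the beta-tubulin genes TUBB, TUBB2A, TUBB2B, TUBB3, TUBB4B and TUBB6. They are 10 of 40205 genes listed in each library. The rule names no difference between the groups, but the members were chosen with earlier results of these data known. CircZFR is a circular RNA made from exons of the ZFR gene. Cells were plated overnight in RPMI medium with serum, then transfected for 24 h with a negative control siRNA (group NC, n = 2 libraries) or a circZFR siRNA (group si-circZFR, n = 2 libraries). RNA was extracted with TRIzol and sequenced on the Ion Proton. Nothing states that the libraries of a group came from separate cultures, so the p-values measure the spread between these libraries, which may be technical.

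The totals recovered from the deposited values were 11040050 to 12816868 reads per library, of which 98.4% to 98.6% lay on listed genes. The sample labels name H1299 cells, whereas the study and the series design name A549 cells. AKR1B10, an aldo-keto reductase abundant in A549 cells, was read at 1271 to 1747 RPKM (reads per kilobase of gene, relative to the library's total reads), while the fibrinogen genes FGA, FGB and FGG lay between 0.761 and 6.89 RPKM. Of the 3 leukocyte markers PTPRC and CD3E were at 0 in all libraries, and CD14 was at 5.99 and 5.21 RPKM in NC and 7.92 and 8.9 in si-circZFR. No endothelial marker was over 0.0265 RPKM. The 5 epithelial markers summed to 2046 and 2522 RPKM in NC and 3255 and 3439 in si-circZFR, and the part of this difference in the tubulin values was not tested. ZFR itself was read at 25.9 and 32.4 scaled RPKM in NC and at 5.23 and 4.59 in si-circZFR (log2FC = -2.35, SE 0.186, FDR = 0.0124, limma). This call was lost without a filter on low genes (FDR = 0.225) and without NC 2 (FDR = 0.0632). Reads of the circle and of the linear ZFR mRNA cannot be told apart in these per-gene values. By RT-PCR, the paper reports, its circZFR siRNA left ZFR expression without a detectable change. Here the mean of ZFR in si-circZFR was 16.8% of that in NC, and the source of this difference was not tested.

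An alpha and a beta tubulin join into a heterodimer, and heterodimers assemble head to tail into the wall of the microtubule, the track for intracellular transport and the fibre of the mitotic spindle. Vertebrates carry several genes, or isotypes, of each kind. Their proteins are very alike except at the acidic C-terminal tail, which points away from the microtubule and carries most tubulin modifications. Cells also adjust tubulin mRNA to the amount of free tubulin. When free dimers are in excess, the first residues of the nascent chain are recognised by TTC5 on the ribosome, and SCAPER and the CCR4-NOT deadenylase then bring about decay of the mRNA being translated.

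The first coding bases are shown because they encode the residues read in this decay, and because they show how nearly the members coincide there. Each line gives the first 24 bases of the coding sequence in the MANE Select transcript (GENCODE v44, GRCh38), 5′ to 3′ on the coding strand, with the first 12 bases in capitals.
TUBA1A, TUBA1B and TUBA1C: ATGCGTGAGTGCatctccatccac
TUBA4A: ATGCGTGAATGCatctcagtccac
TUBB: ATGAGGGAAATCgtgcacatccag
TUBB2A: ATGCGCGAGATCgtgcacatccag
TUBB2B: ATGCGTGAGATCgtgcacatccag
TUBB3 and TUBB6: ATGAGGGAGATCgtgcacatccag
TUBB4B: ATGAGGGAAATCgtgcacttgcag

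The 10 members had 6 distinct starts of 12 bases. One of the 6 starts opened 12 of the 19061 MANE Select coding sequences (0.063%), and the genes outside the list that carried one were TUBB8 and TUBB8B. In the 4 alpha genes the capitals were split by an intron after the first codon. In TUBA1B, on the minus strand, they occupied chr12:49131298-49131300 and chr12:49129714-49129722. In the 6 beta genes they lay in 1 exon, for TUBB at chr6:30720507-30720518 on the plus strand.

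The last 24 coding bases, stop codon included, are shown for 8 members because the tail is where the isotypes part. The capitals mark the last codon before the stop, and all of these stretches lay in exon 4 of 4.
TUBA1C: gaggatgagggtgaagagTATtaa
TUBA4A: gacgaggatgagggagaaGAAtaa
TUBB: gaggaggccgaagaggagGCCtaa
TUBB2A: gaggagggcgaggacgagGCTtaa
TUBB2B: gaggagggcgaggacgagGCGtag
TUBB3: tcggaggcccagggccccAAGtga
TUBB4B: gaggctgaggaggaggtgGCCtag
TUBB6: gaggaagaggagatcgatGGAtag

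TUBA1C ends in a tyrosine codon, the residue that vasohibins remove and tubulin tyrosine ligase puts back, whereas TUBA4A ends in a codon for glutamate. The stretches shown lay at chr12:49273204-49273227 (TUBA1C) and chr2:219250352-219250375 (TUBA4A). The corresponding beta stretches were chr6:30724374-30724397 (TUBB), chr6:3153863-3153886 (TUBB2A), chr6:3224751-3224774 (TUBB2B), chr16:89935781-89935804 (TUBB3), chr9:137243533-137243556 (TUBB4B) and chr18:12326107-12326130 (TUBB6). TUBA1A, TUBA1B and TUBA1C lie close together on chromosome 12, and TUBB2A and TUBB2B on chromosome 6.

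All 10 members passed the filter on low counts and were tested among 14805 genes. None was called at FDR < 0.05 and |log2FC| > 1, against 1.22% of all genes tested (180 genes). By direction, 116 genes were called lower (0.784%) and 64 higher (0.432%), with 0 members in each. At FDR < 0.05 without a fold limit the count was again 0 of 10, against 1.36% of all genes, and limma-voom on the recovered reads called 0 of 10, against 2.55%. The fitted log2FC was below 0 for 10 of 10 members, against 49.7% of all genes, with a median of -0.48 for the members and 0.00 for all genes (without scaling, -0.29 and 0.14). Of the members, 3 (TUBA1B, TUBB and TUBB2B) were lower at an unadjusted p under 0.05, against 11.9% of all genes, and 0 were higher, against 10.6% (22.5% in either direction). In 6 members the groups did not overlap and si-circZFR was the lower one, against 28.0% of all genes, and in 0 members it was the higher one, against 27.8%. The members share a pathway and partly share sequence, so they are not independent of each other. They were also chosen with earlier results known, which limits what these counts can show. Values below are in scaled RPKM, that is, RPKM divided by a scaling factor of 0.889 to 1.12 per library. A lower value in these bulk libraries may mean fewer cells with the mRNA or less mRNA per cell, which cannot be told apart.

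**Figure D1:**
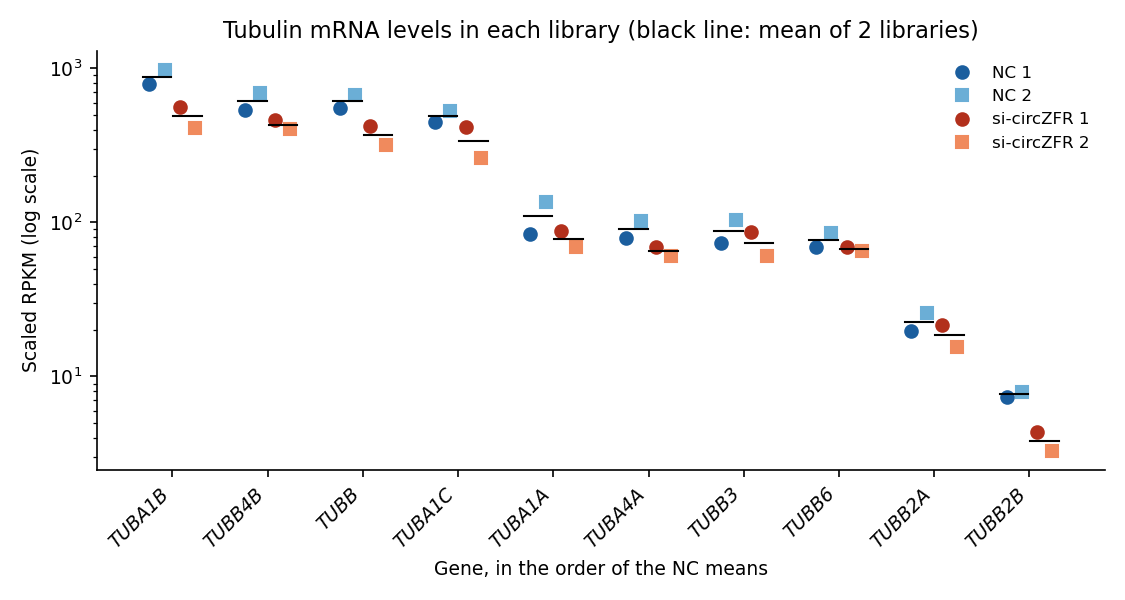
Level of each of the 10 members in scaled RPKM on a log axis, with a point for each of the 2 NC and 2 si-circZFR libraries. TUBA1B, TUBB, TUBB4B and TUBA1C stand between 261 and 979, TUBA1A, TUBA4A, TUBB3 and TUBB6 between 60.2 and 135, and TUBB2A and TUBB2B between 3.29 and 25.7.

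TUBA1B, a broadly expressed alpha isotype, was the most abundant member per length. It was read at 789 and 979 scaled RPKM in NC 1 and NC 2 and at 565 and 413 in si-circZFR 1 and 2. The groups did not overlap, and the means were 884 ± 134 and 489 ± 107 (SD, n = 2 each). The log2FC was -0.86 (SE 0.331, 95% interval -1.65 to -0.08), and it did not pass the test (FDR = 0.189, limma). No other member had a more negative log2FC in the main fit. TUBB2B did with RPKM as deposited, with a pseudocount of 0.1 and with limma-voom. It also did with the length correction (-0.835 against -0.832), with or without the replicate block. The same held without NC 2 (-0.799 against -0.710) and without si-circZFR 2 (-0.678 against -0.637).

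TUBA1C, a close relative of TUBA1B, was read at 452 and 527 scaled RPKM in NC and at 415 and 261 in si-circZFR. The groups did not overlap, but si-circZFR 1 stood nearer to NC 1 than to its own replicate. The means were 489 ± 52.98 and 338 ± 109 (log2FC = -0.57, SE 0.315, FDR = 0.331), and leaving out a library gave log2FC values from -0.23 to -0.90.

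TUBA1A, the alpha isotype prominent in developing neurons, was read at 84.1 and 135 scaled RPKM in NC and at 87.4 and 68.8 in si-circZFR. The groups overlapped, since si-circZFR 1 lay above NC 1, and NC 2 was the highest library. The log2FC was -0.45 (SE 0.27, FDR = 0.359), and it ran from -0.12 without NC 2 to -0.80 without NC 1.

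TUBA4A, the alpha isotype encoded without the terminal tyrosine, was read at 79.4 and 102 scaled RPKM in NC and at 69.6 and 60.2 in si-circZFR. Both si-circZFR libraries were the lower ones. The means were 90.6 ± 15.7 and 64.9 ± 6.65 (log2FC = -0.47, SE 0.204, FDR = 0.236).

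TUBB, the class I beta isotype of most dividing cells, was read at 556 and 673 scaled RPKM in NC and at 423 and 319 in si-circZFR. The groups did not overlap. The means were 614 ± 82.4 and 371 ± 73.4, and the log2FC was -0.73 (SE 0.297, 95% interval -1.44 to -0.03), with an FDR of 0.208.

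TUBB4B, another widely expressed beta isotype that is also a component of cilia, equalled TUBB in the NC mean. It was read at 534 and 696 scaled RPKM in NC and at 459 and 402 in si-circZFR. Again the groups did not overlap, and the NC libraries were farther from each other than the si-circZFR libraries were. The means were 615 ± 114 and 431 ± 40.4 (log2FC = -0.50, SE 0.296, FDR = 0.354).

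TUBB2B, a neuron-associated beta isotype, had the fewest reads of the members, with 174 and 183 in NC and 102 and 82 in si-circZFR. These gave 7.32 and 7.96 scaled RPKM in NC and 4.38 and 3.29 in si-circZFR. The groups did not overlap, and the NC libraries were close together (7.64 ± 0.448 against 3.84 ± 0.771). Its log2FC of -0.85 (SE 0.196, 95% interval -1.31 to -0.38) had the smallest p of the members (unadjusted p = 0.00356, limma), and the FDR was 0.0812. Counting error alone was 11.0% in its lowest library, against 0.979% for TUBB. The log2(scaled RPKM + 1) scale understates the change of a gene this low. The mean of si-circZFR was 50.2% of that of NC, and with a pseudocount of 0.1 the log2FC was -0.988. Without NC 1 the FDR of TUBB2B was 0.0473 at a log2FC of -0.90, which stayed under the fold limit, and 14.2% of all genes had an FDR under 0.05 in that fit. Without NC 2, si-circZFR 1 or si-circZFR 2 the FDR was 0.143, 0.162 and 0.499.

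TUBB2A, which is nearly identical to TUBB2B, was read at 19.7 and 25.7 scaled RPKM in NC and at 21.6 and 15.5 in si-circZFR. The groups overlapped (log2FC = -0.29, SE 0.223, FDR = 0.478), and leaving out a library gave log2FC values from -0.06 to -0.51.

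TUBB3, the class III isotype used as a neuronal marker and often expressed in carcinomas, was read at 73.8 and 103 scaled RPKM in NC and at 87.2 and 60.5 in si-circZFR. The groups overlapped, and the mean of si-circZFR was 83.6% of that of NC (log2FC = -0.26, SE 0.257, FDR = 0.582). Without si-circZFR 2 its log2FC was 0.00. Of the 4 neuronal markers, SNAP25 was read at 4.62 to 7.08 RPKM and RBFOX3 at 3.16 to 4.63. SYP was at 1.39 to 1.82 RPKM and MAP2 at no more than 0.191.

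TUBB6, the class V isotype, had the smallest difference. It was read at 69.1 and 85.1 scaled RPKM in NC and at 69.4 and 65.7 in si-circZFR, so that 3 of the 4 libraries lay within 65.7 to 69.4. The log2FC was -0.18 (SE 0.19, 95% interval -0.63 to 0.27, FDR = 0.604). With RPKM as deposited, without scaling, it was 0.01. Whether the members differed from each other in their log2FC was not tested.

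**Figure D2:**
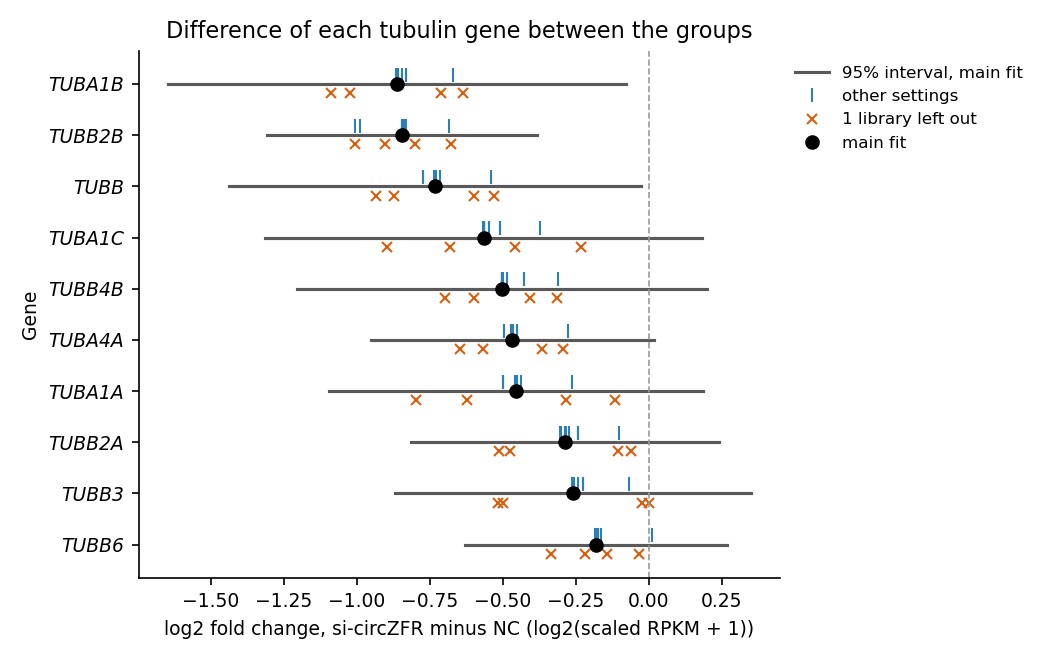
Log2 fold change of each member, si-circZFR minus NC, with its 95% interval from limma and a dashed line at 0. Smaller marks give the other settings and the fits leaving out a library. All 10 points of the main fit lie below 0, from -0.86 for TUBA1B to -0.18 for TUBB6. The intervals of TUBA1B, TUBB and TUBB2B end below 0.

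The order of the NC means, per length, was TUBA1B, TUBB4B, TUBB, TUBA1C, TUBA1A, TUBA4A, TUBB3, TUBB6, TUBB2A and TUBB2B. Neighbours whose ranges did not overlap in either group were TUBA1C and TUBA1A (4.46-fold in the NC means), TUBB6 and TUBB2A (3.39-fold), and TUBB2A and TUBB2B (2.97-fold). TUBA1B was 1.44-fold above TUBB4B and TUBB 1.26-fold above TUBA1C in NC with ranges apart, but in si-circZFR these ranges overlapped. The remaining neighbours overlapped in NC, with ratios of 1.001 for TUBB4B over TUBB, 1.21 for TUBA1A over TUBA4A, 1.02 for TUBA4A over TUBB3 and 1.15 for TUBB3 over TUBB6. The order depends on gene lengths. With MANE Select lengths in place of the lengths in the deposited values, TUBB (647) passed TUBB4B (626), TUBA1A was at 181 and TUBA1C at 293 scaled RPKM, and the order was otherwise as given. The ratio between groups of a single gene does not depend on its length.

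Within each group the members moved between replicates in common. NC 2 was above NC 1 for 10 of 10 members, against 52.0% of all genes, and si-circZFR 2 was below si-circZFR 1 for 10 of 10, against 50.6%. The whole order NC 2, NC 1, si-circZFR 1, si-circZFR 2 from high to low was found in 6 of 10 members and in 11.3% of all genes. These counts depend on the scaling, whose factors were 0.984 and 0.889 in NC and 1.02 and 1.12 in si-circZFR. In RPKM as deposited, TUBB2B was at 7.21 in NC 1 and 7.07 in NC 2. TUBB6 was at 70.97 in si-circZFR 1 and 73.43 in si-circZFR 2. Leaving out NC 2 brought the median log2FC of the members to -0.30, and leaving out NC 1 brought it to -0.69. Leaving out si-circZFR 2 and si-circZFR 1 gave -0.32 and -0.61.

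Summed over the isotypes, alpha tubulin was at 1404 and 1743 scaled RPKM in NC and at 1137 and 803 in si-circZFR. The means were 1573 ± 239 and 970 ± 236, and the ratio of means was 61.7% (log2 -0.70). Beta tubulin summed to 1260 and 1590 in NC and to 1065 and 866 in si-circZFR, with means of 1425 ± 233 and 966 ± 140 and a ratio of 67.8% (log2 -0.56). Neither sum overlapped between the groups. The 10 members together took 0.522% and 0.591% of all reads in NC and 0.446% and 0.37% in si-circZFR. The sums were given no test, because their members were chosen with earlier results known.

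Alpha and beta sums stayed near to each other in every library. The alpha sum per beta sum was 1.11 and 1.10 in NC and 1.07 and 0.927 in si-circZFR. Only in si-circZFR 2 was the alpha sum the smaller.

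Within alpha tubulin, TUBA1B made up 56.2% in both NC libraries and 49.7% and 51.4% in si-circZFR. TUBA1C made up 32.2% and 30.2% in NC and 36.5% and 32.5% in si-circZFR. TUBA4A had 5.66% and 5.83% in NC and 6.12% and 7.49% in si-circZFR, and TUBA1A 5.99% and 7.75% in NC and 7.69% and 8.57% in si-circZFR. The share of TUBA1B was thus lower, those of TUBA1C and TUBA4A higher in both si-circZFR libraries, and that of TUBA1A overlapped.

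Among the beta isotypes, TUBB made up 44.1% and 42.3% in NC and 39.7% and 36.9% in si-circZFR. TUBB4B made up 42.4% and 43.7% in NC and 43.1% and 46.4% in si-circZFR, and these ranges overlapped. The largest isotype of beta tubulin was TUBB in NC 1 and TUBB4B in NC 2 and both si-circZFR libraries. TUBB3 had 5.85% and 6.48% against 8.19% and 6.98%, TUBB6 5.48% and 5.35% against 6.51% and 7.58%, and TUBB2A 1.56% and 1.62% against 2.02% and 1.78%. TUBB2B had 0.581% and 0.5% in NC and 0.412% and 0.38% in si-circZFR. Thus the shares of TUBB and TUBB2B were lower and those of TUBB3, TUBB6 and TUBB2A higher in both si-circZFR libraries. Shares within a sum are not independent of each other, and they rest on the deposited gene lengths. With 2 libraries per group such separations are common. In levels, 28.0% of all genes were apart and lower in si-circZFR, and 27.8% were apart and higher.

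**Figure D3:**
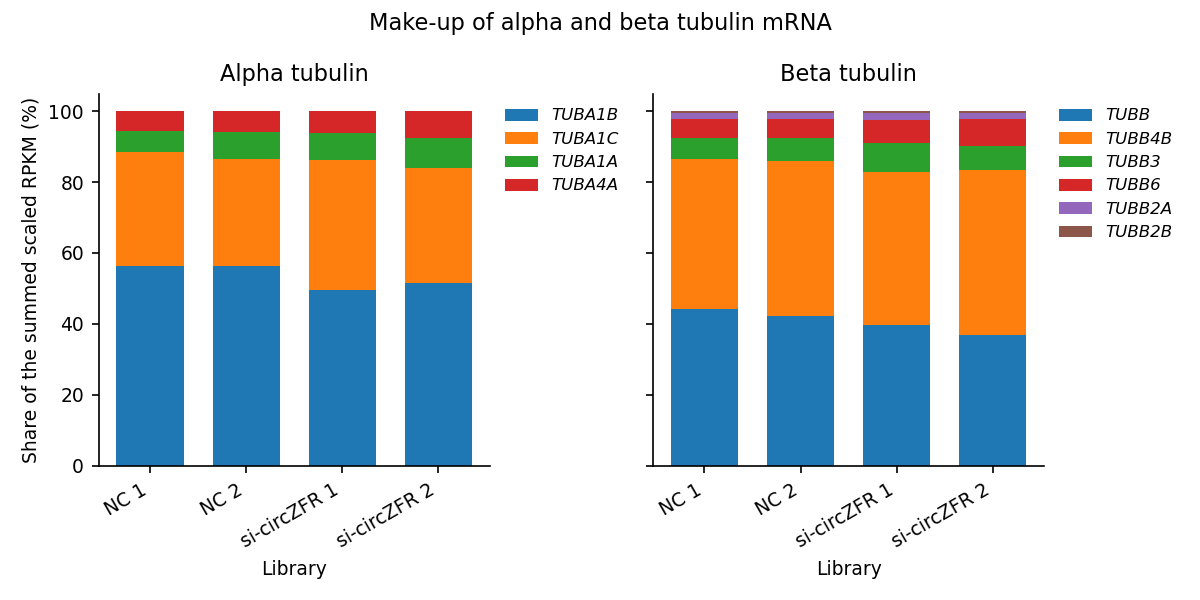
Share of each isotype in the summed scaled RPKM of the alpha genes and of the beta genes, in percent, for each of the 4 libraries. TUBA1B takes 56.2% of alpha tubulin in both NC libraries and 49.7% and 51.4% in si-circZFR, and TUBB takes 42.3% or more of beta tubulin in NC and 39.7% or less in si-circZFR.

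Part of the reads could have come from a near copy. The coding sequences of TUBA1A, TUBA1B and TUBA1C were 95.9% to 97.2% identical and those of TUBB2A and TUBB2B 98.1%, while the other pairs of beta genes were at 81.0% to 87.7% and alpha against beta at 54.9% to 57.6%. Of all stretches of 100 bases in the MANE Select transcript, 55.6% in TUBB2A, 48.7% in TUBB2B, 37.2% in TUBA1B, 21.2% in TUBA1A and 12.3% in TUBA1C occurred unaltered in another tubulin gene or pseudogene. The figure was 5.4% for TUBB and TUBB3, 3.0% for TUBB4B, 1.9% for TUBA4A and 0.0% for TUBB6. How the authors treated reads that match several places is not given in the sources used here, so the levels of TUBB2A, TUBB2B and the 3 TUBA1 genes apart from each other are uncertain. The sums are less exposed to this, since most shared stretches join members of the same sum. TUBA4A also overlaps STK16 and TUBA4B, TUBB4B overlaps CIMIP2A, and TUBB6 overlaps AFG3L2 in the RefSeq annotation, and whether reads were counted by strand is not given.

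Tubulin pseudogenes, taken by name after values had been seen, held 2.46% to 2.88% of the members' reads, with 14 of 32 above 0 in any library. TUBBP1, a processed copy of TUBB, was read at 40.8 and 58.6 scaled RPKM in NC and at 34.2 and 22.6 in si-circZFR (log2FC = -0.79, FDR = 0.148). TUBAP2, which shares stretches with TUBA1A, TUBA1B and TUBA1C, was read at 37.02 and 51.7 in NC and at 34.6 and 23.7 in si-circZFR (log2FC = -0.59, FDR = 0.218). Both followed the order NC 2, NC 1, si-circZFR 1, si-circZFR 2 from high to low, which was found in 11.3% of all genes. Of the 5 pseudogenes tested, TUBBP6 and TUBBP2 did not follow it.

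Of 12 other tubulin genes, 5 were tested and 0 were called (1.22% of all genes), with a median log2FC of -0.29. TUBB4A, a beta isotype of brain, was read at 18.0 and 17.0 scaled RPKM in NC and at 12 and 8.19 in si-circZFR (log2FC = -0.76, SE 0.21, FDR = 0.109). TUBG1, the main gamma tubulin of the centrosome, was read at 86.8 and 86.1 in NC and at 70.2 and 43.4 in si-circZFR (log2FC = -0.64, SE 0.25, FDR = 0.196). TUBG2, the second gamma tubulin gene, stood the other way, at means of 15.9 in NC and 21.5 in si-circZFR (log2FC = 0.41, FDR = 0.205). TUBG2 was named after its values were seen, and the groups of all 3 genes did not overlap. Of the 5 tested, 3 had groups apart and lower (28.0% of all genes) and 1 apart and higher (27.8% of all genes). The germline and tissue-restricted genes TUBA3C, TUBA3D, TUBA3E, TUBA8, TUBAL3, TUBB1 and TUBB8 had 8 reads or fewer in any library and were not tested.

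The 3 genes of the tubulin mRNA decay pathway were all tested, with a median log2FC of -0.25. Of these, 0 were called (1.22% of all genes) and 0 had an unadjusted p under 0.05 (22.5% of all genes). TTC5, which reads the nascent tubulin chain, was at 7.83 and 12.8 scaled RPKM in NC and at 5.78 and 7.13 in si-circZFR (log2FC = -0.57, SE 0.251, FDR = 0.237). CNOT11, the CCR4-NOT subunit bound by SCAPER, had a log2FC of -0.25 (FDR = 0.427), and SCAPER, the remaining gene of the list, one of 0.05 (FDR = 0.895). The groups did not overlap in any of the 3, lower for TTC5 and CNOT11 (28.0% of all genes) and higher for SCAPER (27.8% of all genes).

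Of 7 folding cofactors, which assemble the heterodimer, 0 were called, against 1.22% of all genes. A log2FC below 0 was found in 5 of them, against 49.7% of all genes (median -0.14). ARL2, the small GTPase that works with cofactors TBCC, TBCD and TBCE, was read at 39.4 and 47.1 scaled RPKM in NC and at 23.9 and 16.6 in si-circZFR. Its groups were well apart, yet the log2FC of -1.07 (SE 0.219) missed the threshold (FDR = 0.0643). Among the alternatives on all libraries, ARL2 was called only with limma-voom (FDR = 0.0373), which called 2.55% of all genes. TBCB, which handles alpha tubulin, was read at 64.8 and 95.3 in NC and at 48.2 and 44.7 in si-circZFR (log2FC = -0.75, FDR = 0.124).

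The CCT chaperonin and prefoldin fold newly made tubulin and actin. Of their 14 subunits 0 were called, against 1.22% of all genes. A log2FC below 0 was found in 13, against 49.7% of all genes (median -0.22). PFDN2, a prefoldin subunit, was read at 23.6 and 35.5 scaled RPKM in NC and at 10.7 and 12.6 in si-circZFR (log2FC = -1.25, SE 0.229, FDR = 0.0542). Among the alternatives on all libraries, PFDN2 was called only with limma-voom (FDR = 0.0438) and with the replicate block in limma (FDR = 0.0298). PFDN5 had a log2FC of -0.75 (FDR = 0.211), and its NC libraries lay far apart, at 54.7 and 106. CCT7, the most abundant subunit, had groups that overlapped and a log2FC of -0.19 (FDR = 0.682). Across the 8 chaperonin subunits the log2FC ran from -0.39 to 0.13.

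Of 24 tubulin modifying enzymes 19 were tested and 0 were called, against 1.22% of all genes. The log2FC was below 0 in 9 (49.7% of all genes) and above 0 in 10 (median 0.01). TTLL4, a glutamylase, was read at 21.2 and 15.9 scaled RPKM in NC and at 10.8 and 9.15 in si-circZFR (log2FC = -0.82, SE 0.201, FDR = 0.0892). AGBL5, a deglutamylase, had a log2FC of -0.63 (FDR = 0.122), and the deacetylase SIRT2 one of -0.05 (FDR = 0.885). In the gamma tubulin ring complex, which nucleates microtubules, 0 of 9 genes were called, against 1.22% of all genes (median -0.03). The small subunit MZT1 had a log2FC of 0.46 (FDR = 0.257) and the most abundant, TUBGCP2, one of -0.35 (FDR = 0.324).

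Of 27 genes of microtubule binding and dynamics 26 were tested and 1 was called, against 1.22% of all genes. The median log2FC was -0.04. The called gene was CLIP1, which encodes the plus-end tracking protein CLIP-170. It was read at 17.1 and 14.0 scaled RPKM in NC and at 33.6 and 35.7 in si-circZFR, so it rose (log2FC = 1.11, SE 0.175, FDR = 0.0456). Over 14 alternative fits the log2FC ran from 0.97 to 1.29 and the FDR from 0.0195 to 0.242. The call held in 5 of them and was lost, among others, without NC 2, without si-circZFR 1 and without si-circZFR 2. STMN1, which sequesters tubulin dimers, was read at 55.7 and 92.5 in NC and at 54.6 and 59.4 in si-circZFR, and its groups overlapped (log2FC = -0.33, FDR = 0.485).

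**Figure D4:**
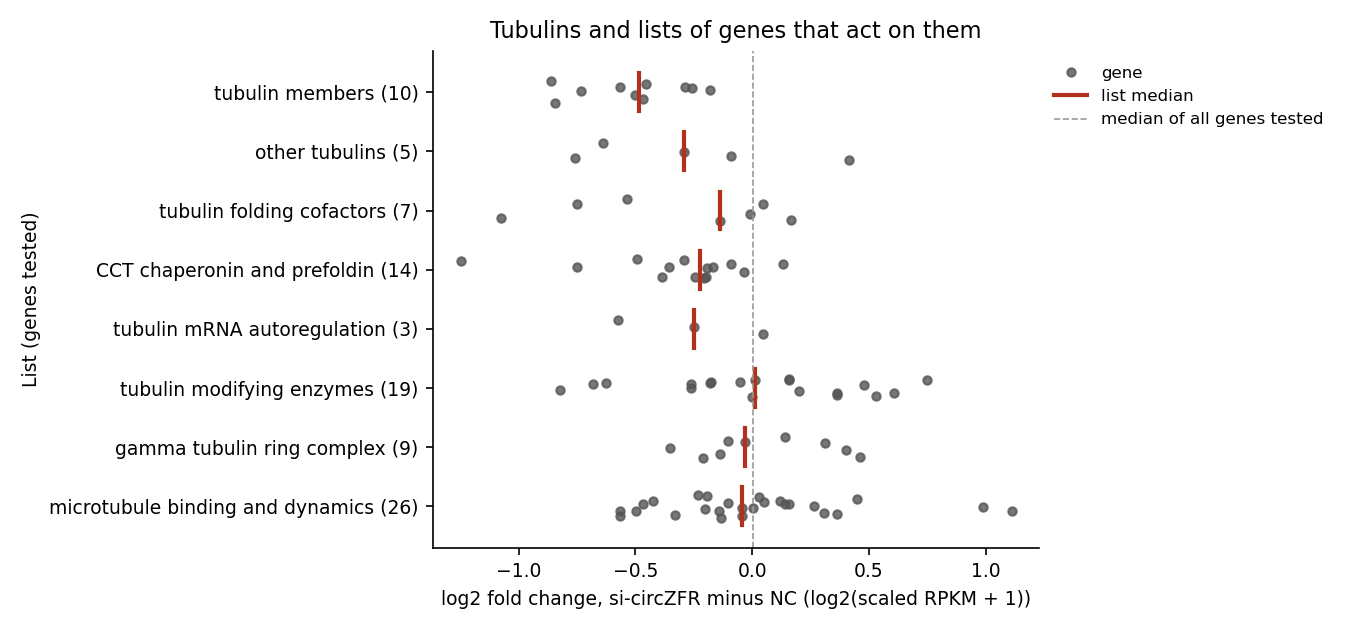
Log2 fold change, si-circZFR minus NC, of every tested gene of the tubulin list and of 7 lists of related genes, with the median of each list and of all genes tested. The members' median is -0.48, the other medians run from -0.29 for the other tubulins to 0.01 for the modifying enzymes, and CLIP1 at 1.11 is the point farthest to the right.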

How the data were processed

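Total RNA was measured by RNA-seq in 4 libraries, grouped and numbered as the sample labels give them. The authors deposited RPKM values per gene. Their methods name alignment to hg38, removal of batch effects by SVA and testing with edgeR, whereas the submitters' processing notes name GRCh37. The aligner, the counting rules and the gene annotation are not given in the sources used here, and no coordinate was taken from the files.

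Because the deposited unit is RPKM and not counts, the edgeR test of the study could not be the main test. Reads were recovered by searching for the gene length that turns the RPKM values of a gene into whole reads (24281 of 24289 genes above 0, 99.97%, tolerance 0.02). Genes over 1 CPM of recovered reads in at least 2 libraries were tested (14805). RPKM was scaled by an unweighted trimmed mean of log ratios, trimming 30% by ratio and 5% by level, and limma 3.58.1 in R 4.3.3, with a trended prior variance, was run on log2(scaled RPKM + 1), a scale that understates the change of low genes. FDR is the Benjamini-Hochberg value over all genes tested, and a call needed FDR under 0.05 and |log2FC| over 1. The fit was tested on simulated data. Tables, sequences and plots were made in Python 3.11.15 with numpy 2.4.6, pandas 2.3.3 and matplotlib 3.10.9. Exact windows of 100 bases were compared between transcripts of GENCODE v44.

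Named were all members, ZFR, every called gene of the other lists, otherwise the 2 genes with the smallest p, and the most abundant gene of each list, with exceptions stated where they occur. Some results under these rules are not reported here. The members and lists were chosen with earlier results of these data known. Alternatives were other scalings, filters and pseudocounts, limma-voom, no trend, a replicate block, a length correction and leaving out each library. Transcript lengths, counts of groups apart and counts of unadjusted p were added after the data were seen.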

Additional observations from a re-analysis of the deposited data

How the results depend on the processing

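No member was called in any of the alternatives run. Of 140 values of the members' log2FC, which are refits of the same 4 libraries and not independent, 138 stayed below 0. The exceptions were TUBB6 at 0.010 (FDR = 0.978) with RPKM as deposited and TUBB3 at 0.001 (FDR = 0.9995, limma) without si-circZFR 2, its range without a library being -0.518 to 0.001. Without scaling, the median over all genes was 0.145 (0.003 with it) and that of the members -0.294 (-0.485 with it). Over the fits other than those leaving out a library, TUBA1B ranged from -0.864 to -0.67, TUBB from -0.772 to -0.54 and TUBB2B from -1.005 to -0.684. The summed log2 ratio ran from -0.968 to -0.469 for alpha and from -0.723 to -0.367 for beta tubulin over all alternatives that gave one, and limma-voom gave none.

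The number of all genes called, 180, was 8 with the RPKM filter, 0 without a filter, 58 with a pseudocount of 0.1, 377 with limma-voom, 39 without the trend, and 0 (without NC 2) to 1028 (without NC 1) when a library was left out, with 13 without si-circZFR 2. At an unadjusted p under 0.05, 3332 genes passed in the main fit. Among the other lists 1 gene was called. The count was 0 with the RPKM filter, without a filter, with the pseudocount of 0.1, without the trend and with the length correction, 5 with limma-voom, and 0 to 9 without a library. ZFR kept its direction throughout, but its FDR was 0.225 without a filter (log2FC = -2.344) and 0.0632 without NC 2 (log2FC = -2.198). The causes were not tested.

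Members with both groups apart and lower numbered 6 (28.0% of all genes), and 6 to 10 without a library. The count was 10 without NC 1, against 43.4% of all genes, and 10 without si-circZFR 1, against 37.3%. It was 6 without NC 2, against 39.9% of all genes, and 6 without si-circZFR 2, against 36.1%. Fewer libraries make such a separation easier to reach. Members lower at an unadjusted p under 0.05 numbered 3 (11.9% of all genes), 1 without a filter (7.96%), 5 without the trend (12.2%), and 1 to 6 without a library (6 without NC 1, against 18.4% of all genes, and 1 without each of the others, against 5.33% to 10.7%).

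The replicate numbers were no sign of a pairing (correlation of same-numbered deviations 0.0841, 2 pairs only). With the replicate number as a block 347 genes were called, 325 together with the length correction, against 180 without it. Of the other lists 2 genes and 0 genes were called, and 1 member was lower at an unadjusted p under 0.05 with the block alone, against 12.2% of all genes. Where leaving out a library left a single library in a group, that library was assumed to vary like the other group.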
